A study of Mus musculus with 16 samples.

Results

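The 8 genes described here are 7 members of the mouse Cyp3a family of cytochromes P450 (Cyp3a11, Cyp3a13, Cyp3a16, Cyp3a25, Cyp3a41a, Cyp3a41b and Cyp3a44) and Nr1i2, which encodes the pregnane X receptor (PXR). They were taken by symbol from a table of read counts for 40840 genes in mouse liver, and all 8 symbols were found. Of these, 5 had enough reads to be tested among 14484 genes, and Cyp3a16, Cyp3a41a and Cyp3a41b did not. The livers came from male C57BL/6J mice, 12 to 16 weeks old, entrained to light and dark and then kept in constant darkness. All of them were injected into the peritoneum with oxaliplatin, a DNA-damaging platinum compound used against tumours, at 12 mg/kg. The treatment labels give 3 consecutive days of dosing, whereas the series text also speaks of a single dose. Injections fell at CT8 or at CT16, circadian time 8 or 16. Animals were wild type (WT) or lacked both cryptochromes in the whole body (CryDKO, Cry1-/- Cry2-/-), bred from heterozygotes. The 4 groups of 4 libraries were thus WT at CT8, WT at CT16, CryDKO at CT8 and CryDKO at CT16. No group without drug was analysed here, so responses to oxaliplatin itself cannot be read from these values, and no source used here states when livers were taken.

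Cyp3a enzymes are haem proteins of the endoplasmic reticulum that oxidise a wide range of drugs, steroids and bile acids, and in liver they are made mainly by hepatocytes around the central vein. PXR is a nuclear receptor that binds drugs, steroids and bile acids, pairs with the retinoid X receptor and switches on Cyp3a genes, Cyp3a11 above all. Cyp3a11 is the principal Cyp3a enzyme of adult mouse liver and Cyp3a13 is also made in intestine. Cyp3a41a, Cyp3a41b and Cyp3a44 are known as female-biased in adult mouse liver, where the male pattern of growth hormone release holds such genes down, and Cyp3a16 is known from fetal liver. Cryptochromes are repressors of the circadian clock, whose output factors of the PAR bZIP family, such as Dbp, bind D-box motifs.

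Promoter sequences are shown first, because 6 of the 7 Cyp3a members share a gene cluster, and Cyp3a11 was measured at far higher levels than its near copies Cyp3a16, Cyp3a41a, Cyp3a41b and Cyp3a44. Cyp3a25 lies in the cluster too but is no near copy of them, with a promoter window 52.9% identical to that of Cyp3a11. They are RefSeq sequences on GRCm38.p6, each from 250 bases before to 50 bases after the gene start. The deposited counts were made on GRCm39, so these positions were not joined to the counts. Cyp3a11 lies at chr5:145879805-145880104, Cyp3a44 at chr5:145805825-145806124 and Cyp3a25 at chr5:146009569-146009868, all on the minus strand. Cyp3a13 lies apart on the same chromosome at chr5:137921570-137921869, and Nr1i2 lies at chr16:38294775-38295074. Capitals mark every match, on either strand, to CAAAGTCCA, a motif of the type bound by HNF4 receptors, and to the nuclear receptor half-sites AGGTCA and AGTTCA. None of the marked matches overlapped another. Cyp3a11 is shown as the most abundant gene, Cyp3a44 as the gene near 0 in WT with the most reads under the CryDKO label, and Cyp3a25 as the gene with the largest loss by genotype among the tested members.
Cyp3a11: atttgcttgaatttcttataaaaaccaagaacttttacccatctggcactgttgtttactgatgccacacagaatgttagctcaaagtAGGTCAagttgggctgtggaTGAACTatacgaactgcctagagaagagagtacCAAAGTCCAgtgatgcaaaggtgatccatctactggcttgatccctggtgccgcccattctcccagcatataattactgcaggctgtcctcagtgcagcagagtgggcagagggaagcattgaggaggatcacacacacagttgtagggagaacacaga
Cyp3a44: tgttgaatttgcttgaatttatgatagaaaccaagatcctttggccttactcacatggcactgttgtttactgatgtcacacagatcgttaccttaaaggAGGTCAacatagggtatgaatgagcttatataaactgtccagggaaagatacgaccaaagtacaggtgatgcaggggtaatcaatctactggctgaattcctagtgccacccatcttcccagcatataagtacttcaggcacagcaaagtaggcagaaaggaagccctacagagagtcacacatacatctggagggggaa
Cyp3a25: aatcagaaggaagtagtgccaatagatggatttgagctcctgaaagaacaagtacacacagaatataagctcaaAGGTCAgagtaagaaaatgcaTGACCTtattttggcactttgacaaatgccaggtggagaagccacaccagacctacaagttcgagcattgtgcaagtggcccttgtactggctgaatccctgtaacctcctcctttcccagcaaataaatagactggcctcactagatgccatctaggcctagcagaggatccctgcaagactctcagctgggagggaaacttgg

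Cyp3a11 held 1 match each to CAAAGTCCA, AGGTCA and AGTTCA. Cyp3a25 held 2 AGGTCA matches and no CAAAGTCCA, a layout it shared with Cyp3a57 and Cyp3a59, the other Cyp3a rows of the table. Over 32851 mouse promoters of the same length, 0.475% held CAAAGTCCA, 16.3% held AGGTCA and 14% held AGTTCA. The D-box TTATGTAA, found in 0.938% of those promoters, and the E-box CACGTG, found in 7.15%, had no match in these windows of any Cyp3a row or of Nr1i2. The windows around the CAAAGTCCA site, 41 bases each, show how close the copies are, with capitals on the site and, in Cyp3a44, on the bases aligned to it.
Cyp3a11: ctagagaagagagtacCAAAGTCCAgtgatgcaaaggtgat
Cyp3a16: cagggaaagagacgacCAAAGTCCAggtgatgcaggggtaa
Cyp3a41a: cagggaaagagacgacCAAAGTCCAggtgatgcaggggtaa
Cyp3a41b: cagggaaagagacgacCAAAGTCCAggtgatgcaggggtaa
Cyp3a44: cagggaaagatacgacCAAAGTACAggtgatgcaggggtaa

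The site was exact in Cyp3a11, Cyp3a16, Cyp3a41a and Cyp3a41b, and Cyp3a44 carried the substitution C7A, counted from 1 at the 5′ end of the motif. These matches describe the letters only. The promoter windows of Cyp3a41a and Cyp3a41b were 97.0% identical, those of Cyp3a16 and Cyp3a44 93.4% and those of Cyp3a11 and Cyp3a44 71.2%. Among the transcripts, Cyp3a41a and Cyp3a41b were 99.9% identical over the aligned bases, and 82.9% of the 150-base windows of Cyp3a41a, the read length, occurred unaltered in another Cyp3a transcript. A read from such a window cannot be assigned to 1 gene of that pair by its own letters, and each of their counts is uncertain. For Cyp3a11, Cyp3a13, Cyp3a16 and Cyp3a44 that share was 0.0%, and for Cyp3a25 it was 0.702%.

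The libraries held 18083916 to 29934138 counted reads. Levels are given as CPM, reads scaled to a common library size with edgeR's trimmed mean method (TMM CPM), and libraries carry running numbers from 1 to 16. Cry2 ran from 39.9 to 58.9 TMM CPM in WT and from 23.1 to 33.3 in libraries labelled CryDKO, whereas Cry1 ran from 5.14 to 15.9 in WT and from 20.5 to 29.0 in libraries labelled CryDKO. The deleted part of either gene was not analysed here, so the counts do not check the deletion, and genotypes are as labelled. The 6 hepatocyte markers in the table, none of them at 0, summed to 48042 to 88189 TMM CPM in WT and to 99602 to 152640 in libraries labelled CryDKO. Whether libraries of a group came from separate animals is not stated in the labels, and p-values measure only the spread between these libraries.

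Cyp3a25 fell in libraries labelled CryDKO at both dosing times, and Cyp3a13 rose at CT8, a call that several left-out libraries end. Cyp3a44 passed at both times, but it entered the test only through the libraries in which it is high, and its calls are given as a description. Cyp3a11 and Nr1i2 passed the test in no comparison. By genotype, 3 of the 5 tested members passed an adjusted p of 0.05 at CT8 (2 rose and 1 fell), where 39.0% of all genes passed (18.7% rose and 20.3% fell). At CT16, 2 of the 5 passed (1 rose and 1 fell), where 18.2% of all genes passed (9% rose and 9.15% fell). Both counts include Cyp3a44, and nothing particular to the members is read from them. By dosing time, 0 of the 5 passed in WT, where 2.53% of all genes passed, and 0 passed in libraries labelled CryDKO, where 0% of all genes passed (edgeR, 938 genes at an unadjusted p under 0.05, and 14 genes by DESeq2). In the plot of levels by library, the loss of Cyp3a25 is the one change by genotype without overlap.

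**Figure D1:**
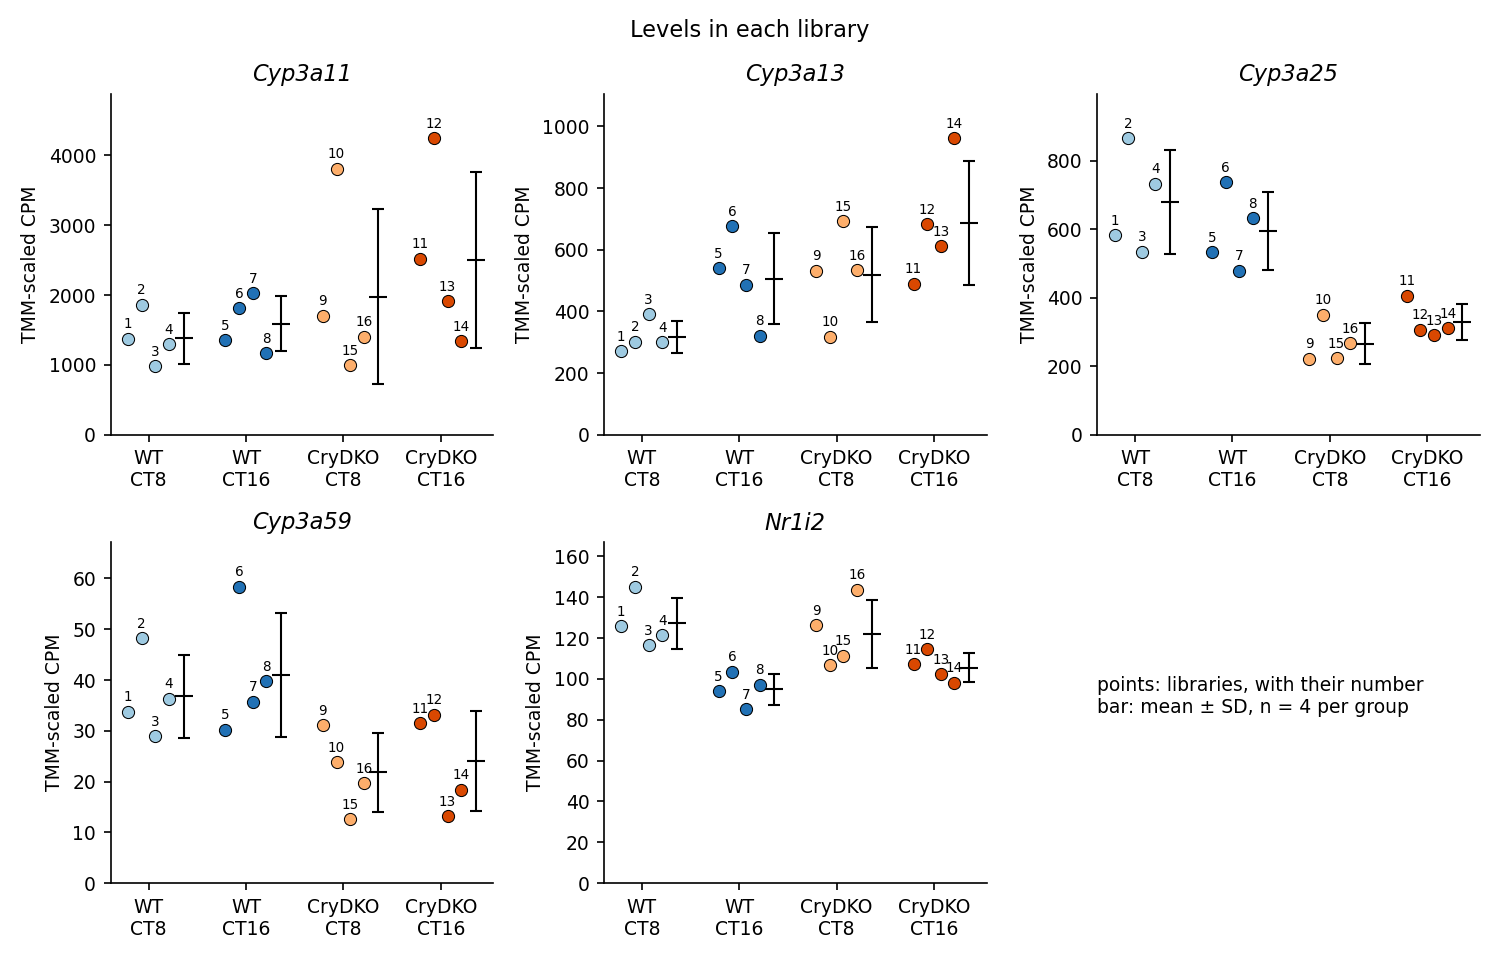
TMM-scaled CPM of Cyp3a11, Cyp3a13, Cyp3a25, Cyp3a59 and Nr1i2 in each of the 16 libraries (points, with the library number) by group, with bars for the mean ± SD of 4 libraries. Cyp3a25 runs from 479.5 to 867 in WT and from 222 to 407 in libraries labelled CryDKO, and libraries 10 and 12 stand high for Cyp3a11.

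Per kilobase of the longest coding transcript, the level of Cyp3a11 in WT at CT8 was 588 ± 155 TMM CPM per kilobase (SD, n = 4), followed by Cyp3a25 at 340 ± 75.6, Cyp3a13 at 107 ± 17.6 and Nr1i2 at 49.9 ± 4.91. The ranges of Cyp3a11 and Cyp3a25 overlapped there, from 418 to 793 and from 267 to 434, while Cyp3a13 and Nr1i2 each lay apart. In libraries labelled CryDKO at CT8 Cyp3a13 stood above Cyp3a25, at 175 ± 52.0 against 133 ± 30.2, with ranges of 107 to 234 and 111 to 176 that overlapped. In libraries labelled CryDKO at CT16 the same pair stood at 232 ± 67.9 and 165 ± 26.2, again with overlap. Cyp3a44, Cyp3a16, Cyp3a41a and Cyp3a41b lay below 0.5 in every group mean.

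Cyp3a25 was the member that lost transcript with genotype at both dosing times. In WT at CT8 it stood at 583, 867, 534 and 734 TMM CPM in libraries 1 to 4, and in libraries labelled CryDKO at CT8 at 222, 351, 224 and 267 in libraries 9, 10, 15 and 16. At CT16 the values were 533, 737, 479.5 and 632 in WT libraries 5 to 8, and 407, 307, 291 and 312 in libraries 11 to 14, labelled CryDKO. At each time the highest library labelled CryDKO lay below the lowest WT library, and of all genes tested 39.2% at CT8 and 19.8% at CT16 had groups without overlap by genotype. Group means were 679.6 ± 151 and 595 ± 114 in WT and 266 ± 60.5 and 329 ± 52.3 in libraries labelled CryDKO (SD, n = 4 each). Cyp3a25 fell 2.56-fold at CT8 (log2 change -1.35 ± 0.20, SE, adjusted p = 8.6e-05) and 1.81-fold at CT16 (-0.86 ± 0.20, adjusted p = 0.0065) in the quasi-likelihood fit of edgeR, p-values being adjusted after Benjamini and Hochberg over all genes tested. Both calls held under every alternative setting that was run and without each of the 16 libraries in turn, where the log2 change ran from -1.51 to -1.20 at CT8 and from -0.97 to -0.73 at CT16. In whole tissue, fewer cells of a type and less RNA per cell cannot be told apart. Of the 6 hepatocyte markers, 3 rose and 0 fell by genotype at CT8 (Alb, Apoa1 and Fgb) and 2 rose and 0 fell at CT16 (Alb and Fgb), and the others did not pass. The marker counts of this paragraph stand beside 39% of all genes called by genotype at CT8 and 18.2% at CT16. Their sum is mostly Alb, which encodes albumin and averaged 35953 and 49863 TMM CPM in WT and 83115 and 88379 in libraries labelled CryDKO at CT8 and CT16. The number of hepatocytes was not measured, and its part in the loss of Cyp3a25 was not tested. Among 7 pericentral markers 0 rose and 2 fell at CT8, where their sum was 8312 to 10571 TMM CPM in WT and 4536 to 9268 in libraries labelled CryDKO, and 1 rose and 0 fell at CT16, with sums of 9031 to 15472 and 9204 to 10841. No pericentral marker was at 0 in any group, and the part of zonation in the loss of Cyp3a25 was not tested.

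Cyp3a59 is the nearest copy of Cyp3a25, with transcripts 97.0% identical over the aligned bases, and is not among the 8 genes. Its level was 36.8 ± 8.22 TMM CPM in WT at CT8 and 21.8 ± 7.71 in libraries labelled CryDKO at CT8. The corresponding means at CT16 were 41.04 ± 12.2 and 24.0 ± 9.81. The log2 change by genotype was -0.75 ± 0.31 (SE) at CT8 and -0.77 ± 0.31 at CT16, and neither passed (edgeR, adjusted p = 0.0663 and 0.0971). Cyp3a59 passed at CT8 in 6 of 8 alternative settings and without library 9 or 13 (edgeR, adjusted p = 0.0358 and 0.0380), and at CT16 with DESeq2 (adjusted p = 0.0448). Across the 16 libraries the log2 levels of Cyp3a25 and Cyp3a59 had a Pearson correlation of 0.77, and of 0.55 for deviations from the group means.

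Cyp3a13 rose at CT8 in libraries labelled CryDKO. In WT at CT8 it stood at 271, 302, 391 and 300.05 TMM CPM in libraries 1 to 4, and in libraries 9, 10, 15 and 16, labelled CryDKO, at 532, 318, 692 and 533. Library 10 lay within the WT range and the other 3 lay above it. The mean was 316 ± 52.1 in WT and 519 ± 154 in libraries labelled CryDKO (SD, n = 4 each), and the log2 change was 0.72 ± 0.25 (SE; edgeR's quasi-likelihood test, Benjamini-Hochberg adjusted p = 0.0289). That call ended without library 1, 2, 4 or 15, with adjusted p = 0.0713, 0.0693, 0.065 and 0.104, and under scaling by library size alone, where the log2 change was 0.37 (adjusted p = 0.153). At CT16 the WT libraries stood at 541, 677, 487 and 321 TMM CPM and the libraries labelled CryDKO at 489, 683, 612 and 963. The groups overlapped, and the change of 0.44 ± 0.25 did not pass (edgeR, adjusted p = 0.226). Cyp3a13 and Cyp3a25 thus moved in opposite directions by genotype at CT8.

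Cyp3a11, the main Cyp3a enzyme, varied widely among libraries labelled CryDKO. Its values were 1377, 1859.8, 979 and 1299 TMM CPM in WT at CT8 and 1357, 1809, 2029.7 and 1165 in WT at CT16. Libraries labelled CryDKO held 1703, 3811, 996 and 1402 at CT8 and 2519, 4249.7, 1915 and 1341 at CT16. Libraries 10 and 12 carried the highest values, and the groups overlapped in every comparison. The means were 1379 ± 364 and 1590.1 ± 399 in WT and 1978 ± 1256 and 2506 ± 1258 in libraries labelled CryDKO (SD, n = 4 each). The log2 change by genotype was 0.52 ± 0.39 (SE) at CT8 and 0.66 ± 0.39 at CT16, and neither passed (edgeR, adjusted p = 0.297 and 0.250). Without library 10 the change at CT8 was -0.0033, and without library 12 the change at CT16 was 0.28.

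In the makeup of the Cyp3a reads, the share of Cyp3a25 was lower in libraries labelled CryDKO. Shares and ratios are a description and were not tested. Cyp3a25 made up 28.6 ± 2.21% of the reads of the 7 Cyp3a members in WT at CT8 and 22.7 ± 5.67% in WT at CT16 (SD, n = 4 each). In libraries labelled CryDKO its share was 10.2 ± 2.08% at CT8 and 10 ± 2.87% at CT16. Cyp3a11 made up 57.6 ± 4.95% and 58.7 ± 6.07% in WT and 67.5 ± 13.7% and 68.5 ± 12.7% in libraries labelled CryDKO. Its shares overlapped, from 51.4 to 67.8% in WT and from 51.3 to 85.1% under the CryDKO label. The ratio of Cyp3a11 to Cyp3a25 reads ran from 1.77 to 4.23 over the 8 WT libraries and from 4.30 to 13.9 over the 8 libraries labelled CryDKO. The highest WT ratio, in library 7, lay just below the lowest ratio under the CryDKO label, in library 14. Shares sum to a whole, so a loss of Cyp3a25 raises the share of the others.

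**Figure D2:**
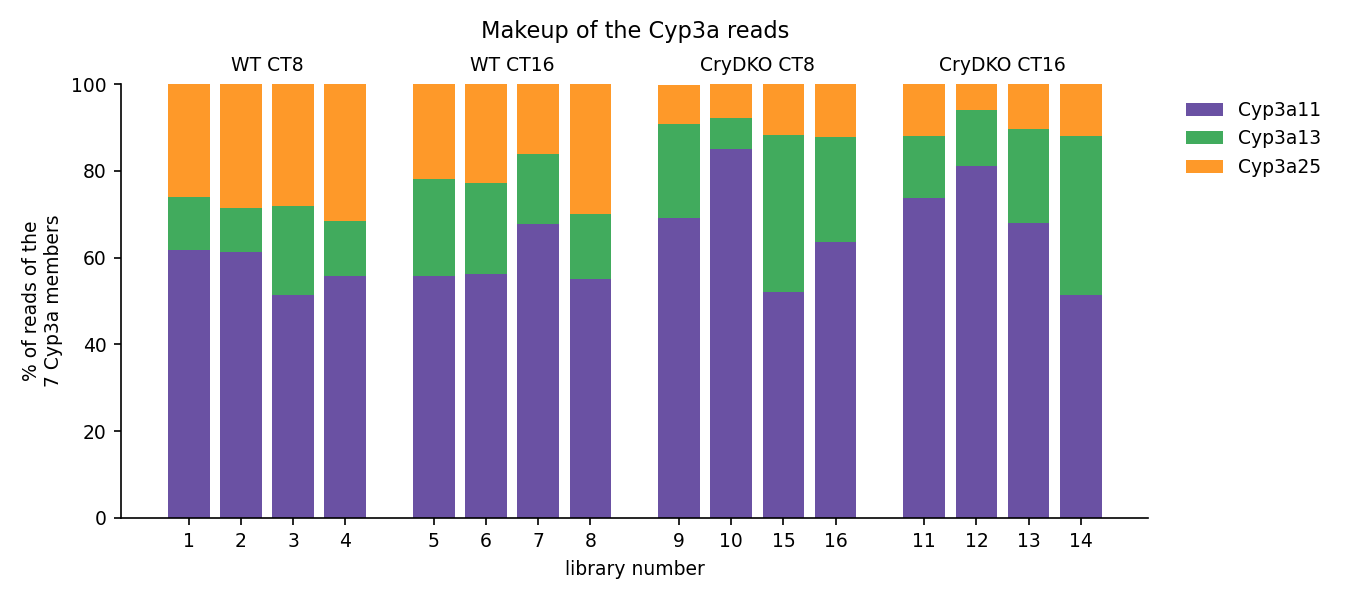
Stacked bars give the percent of reads of the 7 Cyp3a members that were assigned to Cyp3a11, Cyp3a13 and Cyp3a25 in each library, by group. The Cyp3a25 part averages 28.6% in WT at CT8 and 10.2% in libraries labelled CryDKO at CT8.

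Cyp3a44 was almost silent in WT livers and was read in 7 of the 8 libraries labelled CryDKO. It had 0, 2, 0 and 0 reads in WT at CT8 and 0 reads in each WT library at CT16. Libraries 9, 10, 15 and 16, labelled CryDKO at CT8, held 60, 3, 1 and 13 reads, and libraries 11 to 14, labelled CryDKO at CT16, held 15, 63, 0 and 1. The highest values were thus 2.62 TMM CPM in library 9 and 2.79 in library 12, and libraries 10, 13, 14 and 15 were near the WT libraries. At CT8 the groups shared 77 reads against 2, a ratio of 50.8 after scaling (exact 95% interval 13.6 to 427, counting error only). At CT16 the 79 reads stood against 0, at least 37.1-fold higher when WT was set at a floor of 3 reads over the group. Cyp3a44 passed at CT8 (fitted log2 change 5.25 ± 1.85, SE, adjusted p = 0.0422) and at CT16 (7.50 ± 2.33, adjusted p = 0.0461) in edgeR, although the groups overlapped at both times. Fitted changes from such counts depend on the prior count, and Cyp3a44 was tested only because of its reads in the libraries labelled CryDKO, so these calls support nothing beyond the reads themselves. The call at CT8 ended without library 1, 2, 3, 4, 9, 11 or 16 (adjusted p from 0.0564 to 0.144) and with no low count filter (0.0956). The call at CT16 ended without library 1 to 8, 11, 12 or 16 (adjusted p from 0.0606 to 0.118), with limma voom (0.0599) and with no low count filter (0.110).

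The other female-biased or fetal genes stayed near 0. Cyp3a41a had 0 reads in all WT libraries, 10 in library 9 and 1 each in libraries 16 and 12. At CT8 its 11 reads under the CryDKO label were at least 4.83-fold above the floor of 3 reads over the group. It was not among the genes tested, and with no low count filter it passed in that comparison (edgeR, adjusted p = 0.0252). As 10 of those 11 reads came from library 9, this call supports nothing beyond the reads themselves. Cyp3a41b had 1 read in all, in library 13, and Cyp3a16 had 0 to 2 reads per library in every group. Libraries 1, 4, 5 and 8 had no read of any of these 4 genes. Over the 16 libraries the log2 levels of Cyp3a44 and Cyp3a11, whose transcripts were 93.5% identical over the aligned bases, had a Pearson correlation of 0.52, and of 0.43 for deviations from the group means. Library 12 had the most reads of both (96083 of Cyp3a11 and 63 of Cyp3a44), library 9 had 39080 and 60, and library 10 had 84827 and 3. Whether some Cyp3a44 reads came from Cyp3a11 transcripts was not tested.

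**Figure D3:**
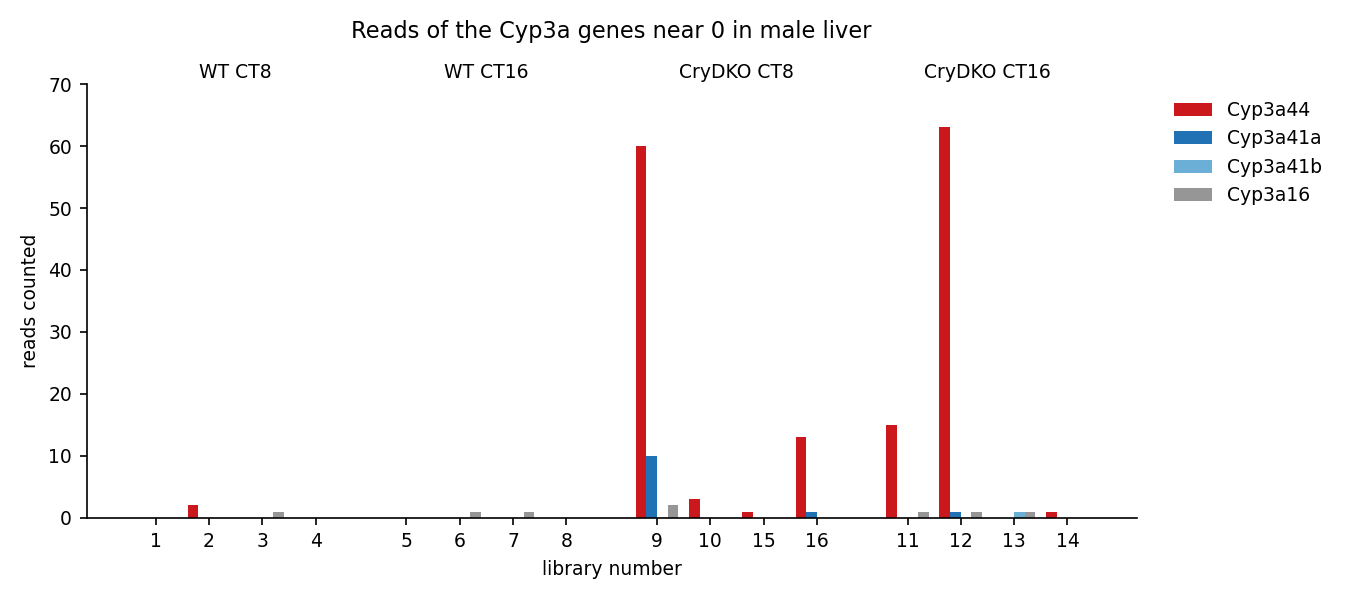
Bars give the reads counted for Cyp3a44, Cyp3a41a, Cyp3a41b and Cyp3a16 in each library, by group. Cyp3a44 reaches 60 reads in library 9 and 63 in library 12, and no WT library has more than 2.

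Among 12633 tested genes outside the 8 and with a gene symbol of the usual kind, the one whose log2 level was most like that of Cyp3a44 over the 16 libraries was Cyp2b13, a female-biased cytochrome P450 of mouse liver (Pearson r = 0.95, and 0.93 for deviations from the group means). Cyp2b13 stood at 130, 184, 74.7 and 354.5 TMM CPM in libraries 9, 16, 11 and 12, which are the 4 libraries with 13 or more Cyp3a44 reads. In the other libraries labelled CryDKO it lay between 0.166 and 0.666, and in WT between 0 and 0.0697. Slc22a26 (r = 0.91), an organic anion transporter of the solute carrier families, and Ier3 (r = 0.91), an immediate early gene, came next. Cyp2b13 was picked for this likeness, so the shared split of the libraries under the CryDKO label is a description only.

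**Figure D4:**
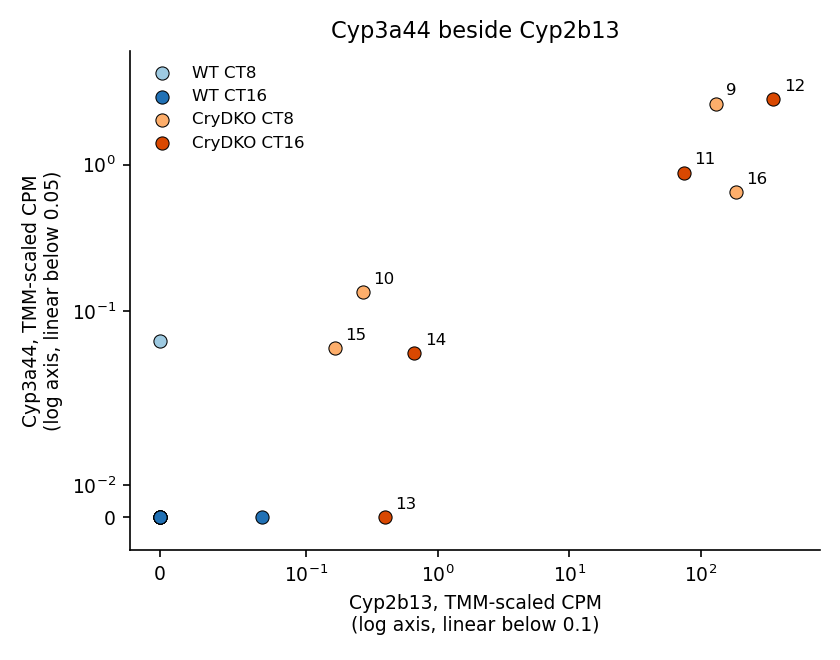
Each point is a library, with Cyp2b13 on the x axis and Cyp3a44 on the y axis, both in TMM-scaled CPM on log axes that turn linear near 0; colours give the groups. Libraries 9, 11, 12 and 16 lie at the upper right, and WT libraries lie at or near 0 for both.

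Nr1i2, which encodes the receptor, had the smallest SD relative to its mean in each group among the 5 tested members. In WT it stood at 126, 145, 117 and 122 TMM CPM at CT8 and at 94.0, 104, 85.3 and 97.1 at CT16, without overlap. Under the CryDKO label it stood at 126, 107, 111 and 144 at CT8 and at 107, 115, 102 and 98.1 at CT16, with overlap. Means were 127 ± 12.5 and 95 ± 7.61 in WT and 122 ± 16.6 and 106 ± 7.13 in libraries labelled CryDKO (SD, n = 4 each). The log2 change from CT8 to CT16 in WT was -0.42 ± 0.13 (SE) and missed the threshold (edgeR's quasi-likelihood test, Benjamini-Hochberg adjusted p = 0.0655). It passed without library 8 (-0.39, adjusted p = 0.0402), with DESeq2 (-0.41, 0.0189), with library size alone (-0.67, 0.0429) and with a mean of at least 50 reads (-0.47, 0.0499). Of all genes tested, 12.6% had WT groups without overlap by dosing time. By genotype the log2 change of Nr1i2 was -0.06 ± 0.13 at CT8 and 0.15 ± 0.13 at CT16, and neither passed (edgeR, adjusted p = 0.735 and 0.440). Under library size alone the change at CT8 was -0.40 and passed (edgeR, adjusted p = 0.0432), a setting that moved the median of all genes by -0.34 in that comparison.

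The enzymes were also compared by dosing time, and none of those tested passed. From CT8 to CT16 in WT the log2 change was 0.68 ± 0.25 (SE) for Cyp3a13 (adjusted p = 0.0999), -0.19 ± 0.20 for Cyp3a25 (0.555) and 0.21 ± 0.38 for Cyp3a11 (0.759), the last turning to -0.08 under library size alone. Without library 8 the Cyp3a13 change in WT was 0.89 and passed (edgeR, adjusted p = 0.0168). The TMM scaling factor of library 8 was 1.20, against 0.921 to 0.955 in libraries 5 to 7 and 1.13 to 1.24 in WT at CT8. Its part in the changes by dosing time was not tested. Under the CryDKO label the changes by time were 0.40 ± 0.25 for Cyp3a13, 0.31 ± 0.20 for Cyp3a25 and 0.34 ± 0.38 for Cyp3a11, with adjusted p-values of 0.812, 0.819 and 0.887 (edgeR). The difference between the genotypes in the change with time was tested as an interaction, which 0 of the 5 members and 0.0414% of all genes passed. For Cyp3a25 it was 0.50 ± 0.28 (edgeR, adjusted p = 0.439), so the smaller loss at CT16 was not shown to differ from that at CT8.

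**Figure D5:**
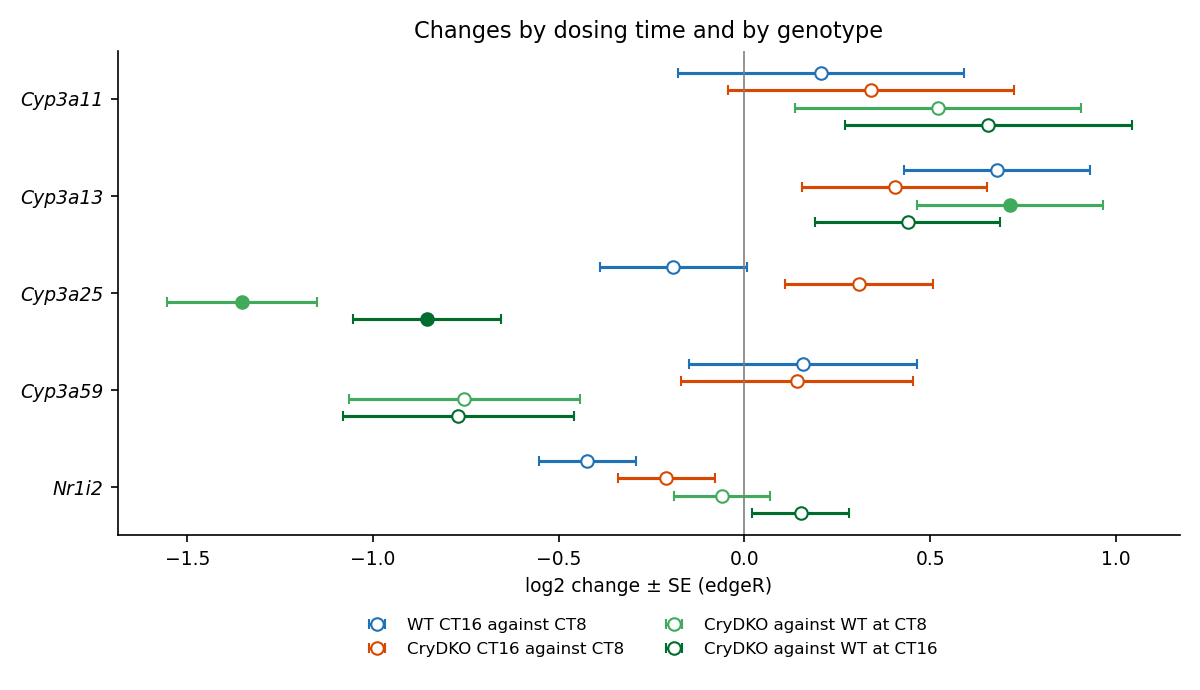
Log2 changes ± SE from edgeR for 4 of the 8 genes and for Cyp3a59 in the 2 comparisons of dosing time and the 2 of genotype, with filled points for adjusted p under 0.05. Filled points are Cyp3a25 at both times (-1.35 and -0.86) and Cyp3a13 at CT8 (0.72); Cyp3a44 is left out because its fitted changes rest on few reads.

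The genes around PXR were followed by lists. Each count below stands beside 39.0% of all genes called by genotype at CT8, 18.2% at CT16 and 2.53% by dosing time in WT, and nothing particular to a list is read from it. Of 15 tested partners and regulators of PXR, 4 rose and 2 fell by genotype at CT8, and 3 rose and 0 fell at CT16, with a median log2 change of 0.17 and 0.02 against -0.02 and -0.01 over all genes. Hnf4a, a hepatocyte nuclear receptor that drives Cyp3a and Nr1i2 genes, rose by 0.84 ± 0.17 (SE, edgeR adjusted p = 0.00096) at CT8 and by 0.70 ± 0.17 (0.0081) at CT16. The dimer partners of PXR, Rxra and Rxrb, rose at CT8 by 0.65 ± 0.17 (edgeR, adjusted p = 0.0051) and 0.46 ± 0.11 (0.0029). Nr1h4, which encodes the bile acid receptor FXR, fell by 0.51 on the log2 scale at CT8 (edgeR, adjusted p = 0.0207). At CT16 Foxa2, a liver pioneer factor, rose by 0.83 ± 0.23 (edgeR, adjusted p = 0.0181). Of 6 genes that supply electrons and haem to cytochromes P450, 2 rose at CT8, namely Cyb5r3 (cytochrome b5 reductase, 0.63 ± 0.18) and Por (cytochrome P450 reductase, 0.60 ± 0.21), and at CT16 only Cyb5r3 rose (0.72 ± 0.18), with list medians of 0.01 and 0.08. None of the tested genes of either list passed by dosing time in either genotype, and the genes with the lowest p in WT were Rxra (0.58 ± 0.17, edgeR adjusted p = 0.0581) and Pgrmc1 (0.26 ± 0.15, 0.278).

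Of the other known targets of PXR in mouse liver, at CT8, 5 of 18 rose and 0 fell by genotype, with a median log2 change of 0.17, and at CT16 1 rose and 3 fell, with a median of -0.17, against 39.0% and 18.2% of all genes called. At CT8 Cyp2b10, a cytochrome P450 shared with the receptor CAR, rose by 6.04 ± 1.30 (SE, edgeR adjusted p = 0.0034), Akr1b7, an aldo-keto reductase, by 2.92 ± 0.63 (0.0015), Abcb1a, a drug efflux pump, by 1.19 ± 0.35 (0.0140) and Ugt1a1, which conjugates bilirubin, by 0.76 ± 0.22 (0.0102). Ugt1a1 shares exons with the other Ugt1a genes and Cyp2b10 has close copies, so the counts of both are uncertain. In WT at CT8 Cyp2b10 had 28 reads over the group and Akr1b7 had 18, so their fitted changes rest on few reads. Cyp2b10 was tested only because of its reads in libraries labelled CryDKO, where it ran from 1.49 to 47.8 TMM CPM at CT8. Akr1b7 overlapped by genotype at CT8, at 0.075 to 0.252 in WT and 0.198 to 2.40 under the CryDKO label. Ugt1a1 also rose at CT16, by 0.77 ± 0.22 (edgeR, adjusted p = 0.0202). At CT16 Cd36, which takes up fatty acids, fell by 1.45 on the log2 scale, Gstm2, a glutathione transferase, fell by 0.98 and Aldh1a7, an aldehyde dehydrogenase, fell by 0.82 (edgeR, adjusted p = 0.00999, 0.0047 and 0.0086). Cyp3a11, the textbook target of PXR, passed at neither time. By dosing time 0 of the 18 passed in either genotype.

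Of 10 clock regulators with a link to Cyp3a, 2 rose and 1 fell from CT8 to CT16 in WT, and 0 passed in libraries labelled CryDKO. Dbp rose by 1.01 ± 0.18 (SE, edgeR adjusted p = 0.0201) and Nr1d1, a repressor of the clock, by 1.32 ± 0.29 (0.0390). By genotype 2 rose and 3 fell at CT8, and 3 rose and 4 fell at CT16. Arntl, which encodes the activator BMAL1, rose by 2.01 ± 0.30 at CT8 (edgeR, adjusted p = 8.0e-05) and by 2.72 ± 0.31 at CT16 (1.6e-05). List medians were 0.14 by time in WT, 0.06 by genotype at CT8 and -0.34 by genotype at CT16.

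Growth hormone signalling and sex-biased genes were followed because of the female-biased Cyp3a genes. Of 10 genes of growth hormone signalling, 0 rose and 3 fell by genotype at CT8, and 2 rose and 3 fell at CT16, with list medians of -0.18 and 0.50, against 39.0% and 18.2% of all genes called in either direction. The 3 that fell at CT8 were Bcl6, a repressor, by 1.52 on the log2 scale, Ghr, the receptor, by 0.78 and Igf1, its secreted target, by 0.63 (edgeR, adjusted p = 0.0041, 0.0061 and 0.0220), and the same 3 fell at CT16. Of the 2 that rose at CT16, Stat5a, a transducer of the receptor, rose by 0.56 ± 0.17 (SE, edgeR adjusted p = 0.0313). Socs2, of the same list, averaged 32.1 ± 6.79 TMM CPM in WT and 76.0 ± 16.9 under the CryDKO label at CT16 (SD, n = 4 each). At CT8 its means were 37.7 ± 20.5 and 33.1 ± 9.33. By time in WT Stat5a fell by 0.66 (edgeR, adjusted p = 0.0467). Of 12 male-biased liver genes, 5 fell and 0 rose at CT8 and 2 fell and 0 rose at CT16, with medians of -2.14 and -0.92. Nudt7, a coenzyme A hydrolase, fell by 2.22 at CT8 and by 0.93 at CT16 (edgeR, adjusted p = 0.00011 and 0.0450). Of 11 tested female-biased genes, 6 rose and 0 fell at CT8 and 4 rose and 0 fell at CT16, with medians of 3.07 and 2.82. Cyp2b13 had 0 reads in WT at CT8 and 2 at CT16, and Sult3a1 had 11 and 17. Both genes were tested only because of their reads in libraries labelled CryDKO, so the counts and medians of this list are a description. Cyp2b9, a cytochrome P450, rose by 7.50 ± 0.73 (SE) at CT8 and 7.01 ± 0.71 at CT16 (edgeR, adjusted p = 2.6e-05 and 5.9e-05). No gene of either sex-biased list passed by dosing time, and no gene of the 7 lists passed the interaction.

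Markers of intestinal epithelium, a tissue that also transcribes Cyp3a genes, summed over 4 genes to 123 to 175 TMM CPM in WT at CT8 and 57.8 to 105 in WT at CT16, and under the CryDKO label to 34.9 to 132 at CT8 and 14.7 to 49.1 at CT16. Of these, 1 marker was at 0 in every group, namely Cdx2. The sum was mostly Fabp2 and Lgals4. Fabp2 averaged 81.1 and 47.9 in WT at CT8 and CT16, and 56.4 and 17.0 under the CryDKO label. Lgals4 averaged 65.9 and 27.2 in WT, and 17.5 and 14.6 under the CryDKO label. Vil1 was below 0.5 in every group mean. Of the 3 intestinal markers tested, 0 rose and 1 fell by genotype at CT8, and 0 rose and 1 fell at CT16. Of 7 periportal markers, 6 rose by genotype at CT8 and 0 at CT16, and of 7 macrophage markers 1 rose at CT8 and 3 at CT16. Of 7 markers of stellate cells and fibroblasts, 4 rose at CT8 and 1 at CT16, and of 5 cholangiocyte markers 2 rose at CT8, and 1 rose and 1 fell at CT16. No marker of these 4 lists was at 0 in any group. The summed levels of the stellate list at CT8 were 105 to 145 TMM CPM in WT and 126 to 253 in libraries labelled CryDKO, and those of the cholangiocyte list 25.8 to 91.7 and 50.4 to 146. Their part in the changes of the Cyp3a genes was not tested.

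The genes most like each of the other members over the 16 libraries were named by Pearson correlation of log2 levels, as a description of libraries that share groups and scaling. For Cyp3a11 they were Cdc25a (r = 0.83), Angptl8 (0.82) and Fut10 (0.77). For Cyp3a13 they were Itih3 (r = 0.94), Hgsnat (0.93) and Slc39a1 (0.93), and these held within groups at 0.91, 0.85 and 0.86. For Cyp3a25 they were Zfp974 (r = 0.94), Mbnl1 (0.94) and Usp45 (0.93), which within groups came to 0.84, 0.56 and 0.58. For Nr1i2 they were Unk (r = 0.84), Sirt6 (0.82) and Ncapd2 (0.80). Between the members themselves, Nr1i2 had r = -0.07 with Cyp3a11, -0.34 with Cyp3a13, -0.01 with Cyp3a25 and 0.37 with Cyp3a44, and within groups these came to 0.12, 0.04, 0.32 and 0.58. Cyp3a11 and Cyp3a13 had r = 0.05 over all libraries and -0.49 within groups.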

How the data were processed

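Poly(A)-selected liver RNA was sequenced as 150-base read pairs, per the labels. Per the submitters' processing notes the tools were FastQC, Trimmomatic 0.35, STAR 2.5.3, HTSeq 1.99.2 and DESeq2, with the build GRCm39 (mm39). The annotation, the strand setting and the treatment of reads with several alignments are not stated in the sources used here. The deposited table holds counts, whole reads per gene symbol, not normalized, from 18083916 to 29934138 per library, and these were used as deposited. A second, normalized table was not used. Columns were mapped to groups by their names.

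Counts were fitted in R 4.3.3 with edgeR 4.0.16: filterByExpr by group, TMM scaling, and the robust quasi-likelihood model over all 16 libraries with 1 coefficient per group. Of 5 comparisons, p-values were two-sided and adjusted by Benjamini-Hochberg over 14484 genes, with a threshold of 0.05. Each SE was taken as the log2 change, without its sign, over the root of its F statistic. Errors of levels are SD over 4 libraries. Alternatives were DESeq2 1.42.0, limma voom 3.58.1, a fit without the robust option, size factors of DESeq2, library size alone, filters of a mean of 50 reads or none, only the groups compared, and each library left out. The procedure was tested on simulated data.

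The 8 genes and the lists were chosen with earlier results of these data known. Named genes were the 8, other Cyp3a rows, up to 4 genes per list with the lowest p, and the 3 genes most correlated with each tested member; some are not reported here. Promoters are from RefSeq (GRCm38.p6), with all 8 genes matched, and transcripts from GENCODE M21 (GRCm38), joined by symbol. Alignments used Biopython 1.88 under Python 3.11.15. Motifs were searched on both strands. Exact intervals and the floor of 3 reads cover counting error only, because reads are not independent molecules.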

Additional observations from a re-analysis of the deposited data

Results flagged for a closer look

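Cyp3a44 in library 2 of WT at CT8 stood at 0.0619 TMM CPM, from 2 reads, while the other 3 libraries of that group were at 0. It stood apart from the others of its group by Dixon's 95% criterion, as any single value above 0 would. The criterion was set for 20 groups of 4, but Cyp3a44 in WT at CT16, at 0 in every library, could not be judged. Chance passes about 5% of groups, a rate that does not hold for groups of mostly 0 reads.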

How the results depend on the processing

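No paired analysis was possible because columns are numbered through the whole series and hold no replicate numbers of the labels. Both Cyp3a25 calls by genotype held under every alternative that was run. In WT by dosing time the count of members called was 1 (Nr1i2) with DESeq2, with library size alone and with a mean of at least 50 reads, and 0 to 2 with each library left out. By genotype with each library left out the count was 1 to 3 at CT8 and 1 to 2 at CT16. At CT16 it was 1 with limma voom, with no low count filter, with a mean of at least 50 reads and with only the groups compared. At CT8 it ran from 2 to 3 over the alternative settings. Cyp3a44 could not be tested at a mean of at least 50 reads. By genotype and by time in WT, Cyp3a44 also could not be tested with only the groups compared. With library size alone the median of all genes moved by -0.25 by time in WT, by -0.34 by genotype at CT8 and by -0.15 at CT16.

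Directions that turned belonged to changes that had not passed. Cyp3a11 by time in WT was -0.075 with library size alone. Cyp3a44 by time under the CryDKO label was -0.49 with limma voom and -0.0035 with library size alone. With each library left out, Cyp3a44 ran from -2.42 to 0 by time in WT and from -1.51 to 1.74 by time under the CryDKO label. Cyp3a11 ran from -0.038 to 0.87 by time under that label, from -0.0033 to 0.75 by genotype at CT8 and from -0.25 to 0.66 for the interaction. Nr1i2 ran from -0.14 to 0.021 by genotype at CT8. The cause was not tested.

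Over all genes, the count called by time in WT was 367, and 1546 with DESeq2, 955 with limma voom, 663 with no low count filter, 712 with only the groups compared and 0 to 3580 with each library left out. By time under the CryDKO label it was 0, with 14 by DESeq2, 2 with no low count filter and 0 to 3 with each library left out. For the interaction it was 6, and 134 with DESeq2, 1 with limma voom, 0 with library size alone, 30 with no low count filter, 1 with a mean of at least 50 reads and 0 to 568 with each library left out. Reads limit Cyp3a16, Cyp3a41a, Cyp3a41b and Cyp3a44, for which a library with 0 reads allows up to 0.0928 to 0.176 TMM CPM.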
